A study of Drosophila melanogaster with 69 samples.

Results

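The genes described here are the 93 Drosophila melanogaster genes whose FlyBase symbol starts with RpL or RpS, together with sta, out of 17807 genes in the deposited expression files. They encode the proteins of the cytosolic ribosome and a few related factors. All 93 were listed in every library, and 27 of them fall into 13 sets of paralogs that share a name, leaving 66 genes that are not in such a set. Their messenger RNAs were followed in whole gonads by bulk RNA-seq in 69 libraries, 36 of testes and 33 of ovaries, at days 1, 3, 5, 7, 9 and 11 of adult life.

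The groups were chinmoST testes, wild-type testes, chinmoST ovaries and wild-type ovaries at each of the 6 days, with 3 libraries per group except for wild-type ovaries of days 1, 7 and 11, which had 2. Wild-type flies were of the Oregon R strain. The genotype given for the chinmoST libraries of both tissues is Sod1[X-39] and e[1] over the balancer TM3, which carries Sb[1] and Ser[1], and no wild-type library is labelled with these alleles. That field lists no chinmo allele, and the chinmo genotype rests on the strain label alone. The strain background and the chinmo mutation cannot be told apart. Flies were kept at 25 °C. Each library pooled the gonads of many animals, about 50 to 60 pairs of testes or 20 to 25 pairs of ovaries, and the titles of the day 1 libraries give day 0. chinmoST is an allele of chinmo that removes the transcription factor Chinmo from the somatic cyst stem cells of the adult testis, whose lineage then takes on features of ovarian follicle cells while early germ cells accumulate.

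The ribosome is built from ribosomal RNA and a fixed set of ribosomal proteins, whose production is coordinated in growing cells, and ovarian nurse cells make very large numbers of ribosomes for the egg. Several Drosophila ribosomal proteins are encoded by a broadly used gene and by a second gene used mostly in the germline. RpL22-like, RpS5b and RpS19b are known examples of such germline copies, and RpS5b is needed for normal oogenesis. In bulk samples, more cells of a type and more RNA per cell cannot be told apart.

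Libraries held between 32462418 and 181988641 estimated fragments. Expression is given in TPM, which scales fragments to transcript length and to the same total in every library. Wild-type testis replicate 1 of days 3, 5, 7 and 9 held few fragments of long genes, which raises short genes such as these (median transcript length 646 nt, against 1600.2 nt over protein-coding genes). Several results that rest on these libraries are also given without them, but the counts of day 7 alone and day 9 alone are not. The chinmoST testis libraries of days 9 and 11 lay the other way. Their long genes stood at a median log2 of 0.584 to 0.933 from the testis mean, against -0.655 to -0.008 in wild-type testes of those days. The cause of this difference was not tested. The 5 spermatid markers summed to 187.21 TPM in wild-type ovary replicate 1 of day 1, against a median of 0.88 TPM over the 15 wild-type ovary libraries, so that library carried RNA of testis genes. Over all libraries chinmo itself lay between 31.67 and 91.35 TPM in chinmoST testes and between 27.25 and 112.79 TPM in wild-type testes. The ranges overlapped, and a bulk level cannot show its loss from one lineage.

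Ribosomal protein messenger RNA took up a larger share of the testis transcriptome in chinmoST flies as they aged. The 93 genes held 1.82, 1.73 and 2.44% of all TPM in chinmoST testes at day 1, against 2.07, 2.38 and 2.01% in wild-type testes. At day 5 they held 3.43, 2.97 and 3.51% in chinmoST testes, against 3.94, 1.85 and 2.0% in wild-type testes, where the first value belongs to a library low in long genes. The genotypes overlapped on these days and also at day 3. At day 7 the shares were 5.54, 8.02 and 5.88% in chinmoST testes, against 3.13, 2.52 and 2.26% in wild-type testes. At day 9 they reached 11.5, 9.29 and 12.1% in chinmoST testes, against 4.57, 2.33 and 2.41% in wild-type testes. At day 11 they were 15.2, 13.0 and 12.8% in chinmoST testes, against 2.41, 2.60 and 2.43% in wild-type testes. From day 7 on every chinmoST testis library lay above every wild-type testis library of its day.

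**Figure D1:**
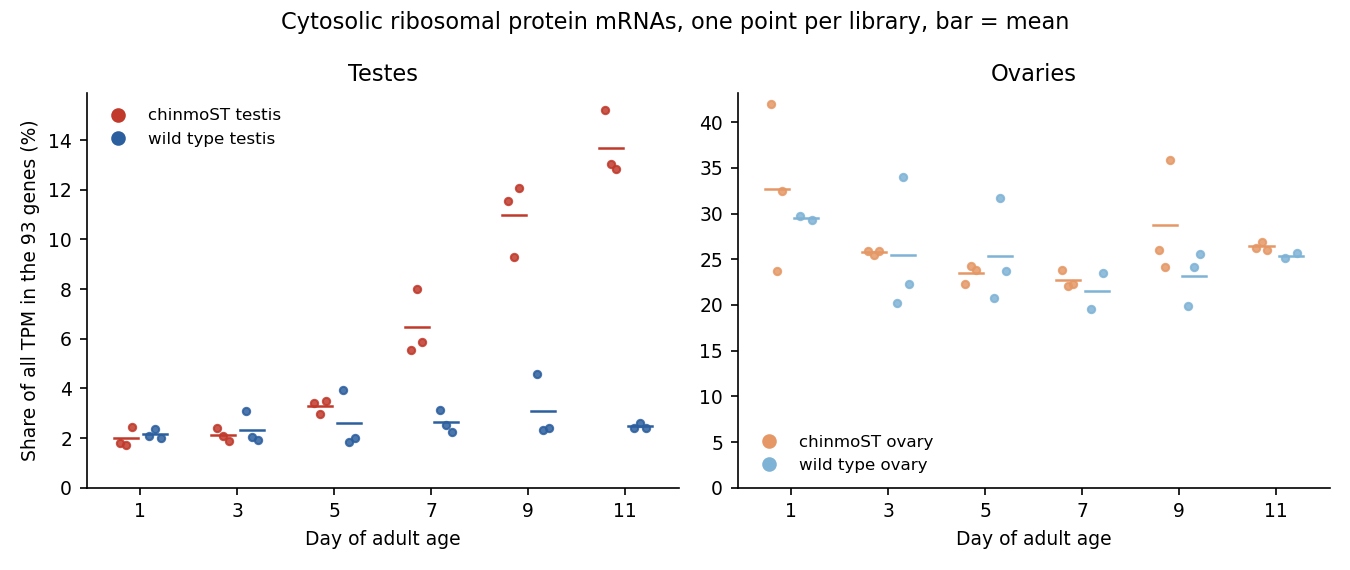
Share of all TPM held by the 93 genes, in percent, by day of adult age in testes and ovaries. Each point is a library and each bar the mean of a group. chinmoST testes reach 13.7% on average at day 11, against 2.48% in wild-type testes, and the ovaries of both genotypes lie between 19.5 and 42.0%.

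The rise covered nearly every gene of the family. Each gene was tested with edgeR over all 14910 testis genes that passed a filter on low counts, and a gene was called at an adjusted p under 0.05 and a change of at least 1.5-fold. At days 9 and 11 together, with 6 libraries per genotype, 89 of the 93 genes were called higher and 3 lower in chinmoST testes. Over all genes tested, 34.1% were called higher and 31.4% lower, 65.5% in all. The median log2 fold change was 1.95 over the 93 genes and 0.09 over all genes tested. In TPM, all 6 chinmoST libraries lay above all 6 wild-type libraries for 87 of the 93 genes and below them for 3, against 38% and 20.1% of 14608 genes with at least 10 fragments in 3 of these libraries. This comparison holds with DESeq2, with library size alone and without any one replicate number, where between 88 and 92 of the genes were called. The share of all genes called under these settings is not given.

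All 66 genes outside the paralog sets were called higher, with log2 fold changes between 1.00 and 2.74. The 40 proteins of the large subunit among them had a median of 2.0 and the 26 of the small subunit a median of 1.92. RpL28, a large subunit protein, had the highest value. It was at 5818, 4213 and 4250.4 TPM in chinmoST testes at day 11, against 428, 471 and 433 TPM in wild-type testes (log2 fold change over days 9 and 11 2.74 ± 0.25, SE, adjusted p = 1.46e-10). sta, the small subunit protein of the stubarista gene, was at 1738, 1518 and 1453 TPM in chinmoST testes at day 11, against 191, 217 and 202 TPM in wild-type testes (2.48 ± 0.26, adjusted p = 2.17e-09). RpL18 and RpL7A, both of the large subunit, followed at 2.36 and 2.26.

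The smallest rises outside the paralog sets belonged to RpLP2 (1.43), an acidic stalk protein, RpS21 (1.31), RpS29 (1.02) and RpL41 (1.00). RpL41, which encodes a very small protein, and RpS29 were the most abundant of these genes in wild-type testes. RpL41 was at 5768, 5260.2 and 5298 TPM in chinmoST testes at day 11, against 1886, 1688 and 1567 TPM in wild-type testes. RpLP2 had 1969, 1612 and 2194 TPM in chinmoST testes at day 9, against 1132, 291 and 281 TPM in wild-type testes, where replicate 1 again stands above the other two. Without replicate 2 or without replicate 3, RpLP2 and RpL41 were no longer called, with adjusted p between 0.0688 and 0.109.

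**Figure D2:**
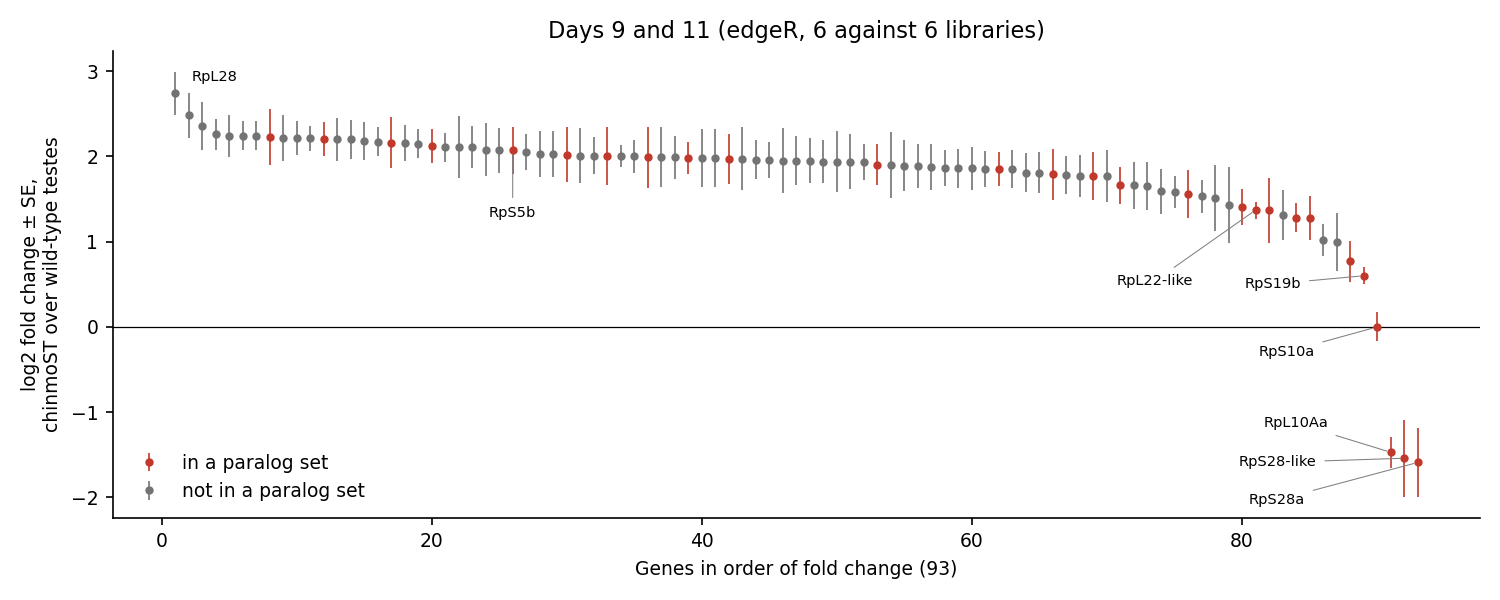
log2 fold change with its standard error, chinmoST over wild-type testes at days 9 and 11, for the 93 genes in order of size. Genes of the paralog sets are in red and the other 66 in grey. The grey points all lie at 1.00 or above, and RpL10Aa, RpS28-like and RpS28a lie between -1.47 and -1.59.

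The difference between the genotypes was small at day 1 and grew with age. At day 1 a single gene was called, RpL13A, which was lower in chinmoST testes at a log2 fold change of -0.59 (5.6% of all genes called, 2.22% higher and 3.38% lower). At day 3, 7 of the 93 genes were called, all lower (19.1% of all genes called, 6.59% higher and 12.6% lower), and at day 5 only RpS10a was, also lower, at -1.01 (27.8% called, 12.7% higher and 15.1% lower). At day 7, 64 genes were called higher and 3 lower, where 50.6% of all genes were called, 27.8% higher and 22.8% lower. Without replicate 2, 21 were called in all, and 32 without replicate 3. The share of all genes called is not given for these smaller sets of libraries, so these counts have no background. With all libraries the counts grew further on the last days. At day 9, 82 were higher and 3 lower (58.3% called, 30.3% higher and 28% lower). At day 11, 89 were higher and 3 lower (62.1% called, 32.1% higher and 29.9% lower). The median log2 fold change over the 93 genes was -0.04 (day 1), -0.19 (day 3), 0.06 (day 5), 1.12 (day 7), 1.54 (day 9) and 2.32 (day 11).

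The early days depend on the wild-type libraries low in long genes. Over days 3 and 5 together 7 genes were called, all lower (29.4% of all genes called, 12.6% higher and 16.8% lower), and their median was -0.07. Without wild-type testis replicate 1 of days 3, 5, 7 and 9 the same comparison gave 36 higher and 1 lower, with a median of 0.52. At day 5 alone 61 genes were then called, all higher, in place of 1, and at day 3 alone 16 were higher and 6 lower, in place of 7 lower. At day 9, 50 genes were called in all without replicate 3, in place of 85. The share of all genes called is not given for these smaller sets of libraries, so these counts have no background beside them.

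**Figure D3:**
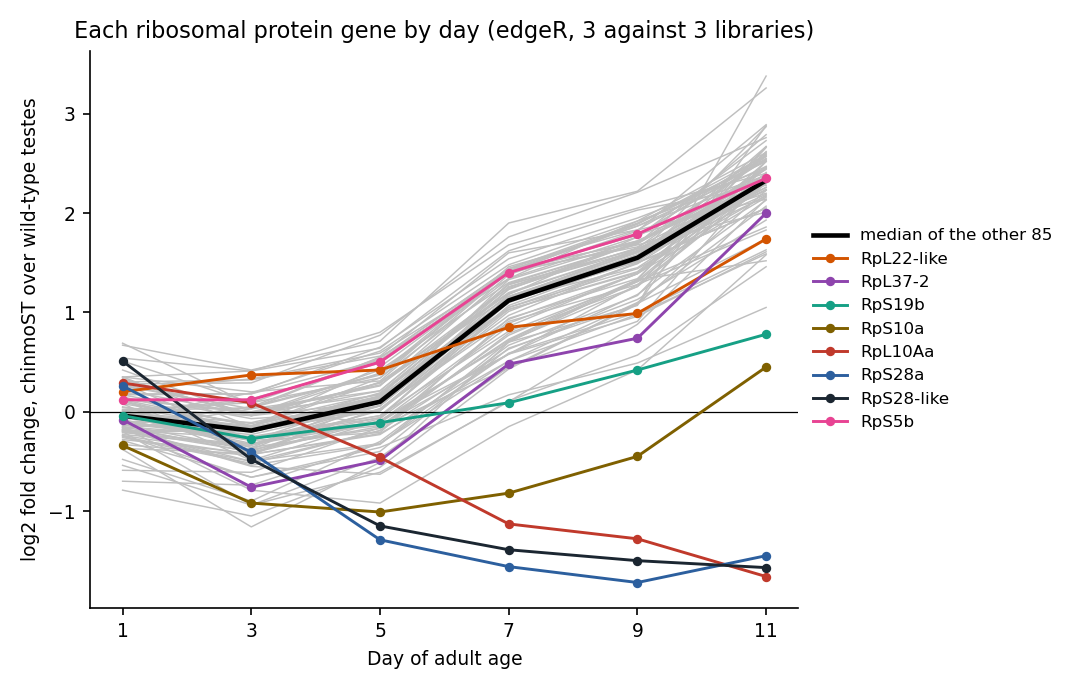
log2 fold change of each of the 93 genes by day, chinmoST over wild-type testes, from the edgeR fit with 3 libraries per genotype and day. Grey lines are single genes, the black line is the median of the 85 genes that are not coloured, and 8 paralogs are coloured. RpS5b follows the black line, while RpL10Aa, RpS28a and RpS28-like lie below 0 from day 5 on.

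The genotype difference itself changed with age. Set against the difference at day 1, that of days 9 and 11 was larger for 86 genes and more negative for 3, where 56.6% of all genes were called, 29.6% larger and 27% more negative. Within chinmoST testes, 89 genes were higher and 3 lower at days 9 and 11 than at day 1 (67.9% of all genes called, 35.1% higher and 32.8% lower). Within wild-type testes none of the 93 genes was called between the same days by edgeR or by DESeq2 (1.06% of all genes called, 0.409% higher and 0.651% lower). In edgeR 2 of them had an unadjusted p under 0.05, against 1388 of all 14910 genes tested. The median log2 difference of the 93 genes was 0.37 with all libraries and 0.12 without the 4 libraries low in long genes. The genotype difference of days 9 and 11 without replicate 2 was called to differ from that of day 1 for 57 genes. The share of all genes called in that smaller set of libraries is not given.

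Ovaries held far more of these messenger RNAs than testes. In wild-type flies, 86 of the 93 genes were called higher in ovaries than in testes and the other 7 lower, where 39.6% of all genes were called higher and 49.1% lower, 88.7% in all. For 86 genes all 15 wild-type ovary libraries lay above all 18 wild-type testis libraries in TPM, and for 7 genes all lay below. The share of all genes separated in this way was not computed, so this count has no background beside it. The median log2 difference was 3.41 over the 93 genes, against -0.60 over all genes tested. RpL38 (4.62), RpL8 (4.39) and RpL36 (4.27), all of the large subunit, differed most among the 66 genes without paralogs, and RpL27 (2.82), RpS13 (2.66) and RpS29 (2.35) least. RpL8 was between 1098 and 3304 TPM (median 2063) in wild-type ovaries and between 94.9 and 185 TPM (median 125) in wild-type testes. At day 11 it stood at 1056, 905 and 918 TPM in chinmoST testes, below every wild-type ovary.

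The 7 genes lower in ovaries were RpL10Aa, RpL22-like, RpL37-2, RpS10a, RpS19b, RpS28a and RpS28-like, all of them members of paralog sets and all on autosomes. Their partners RpL22, RpL37-1, RpS10b, RpS19a and RpS28b lie on the X chromosome, while RpL10Ab lies on chromosome arm 3L. The X chromosome carries 15 of the 93 genes, 9 of them in paralog sets. RpL10Aa had no counted fragment in 11 of 15 wild-type ovary libraries and at most 0.08 TPM in the others apart from replicate 1 of day 1, where it had 2.95 TPM. A count of 3 corresponds to between 0.0368 and 0.139 TPM for this gene in these libraries. RpL22-like had at most 0.15 TPM in wild-type ovaries outside that library and 2.54 TPM in it. RpS10a and RpS19b were counted in every wild-type ovary library, with medians of 1.09 and 1.90 TPM over wild-type ovaries.

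These copies did not share a direction in aging chinmoST testes. RpL22-like, the germline partner of RpL22 in the large subunit (FBgn0034837, chromosome 2R, 23246610 to 23247893 in dm6), was at 665, 501 and 541 TPM in chinmoST testes at day 11, against 157, 146 and 146 TPM in wild-type testes. The groups did not overlap, and the log2 fold change over days 9 and 11 was 1.37 ± 0.10 (adjusted p = 1.02e-12). RpL22 itself, on the X chromosome (FBgn0015288, chromosome X, 762560 to 765130), rose more. It had 279, 208 and 226 TPM in chinmoST testes at day 11, against 43.1, 41.5 and 40.9 TPM in wild-type testes (2.02 ± 0.32, adjusted p = 2.71e-06). RpL22-like made up 66.0 ± 5.10% in chinmoST testes and 76.5 ± 8.55% in wild-type testes of the pair's TPM (SD, n = 6 each, exact permutation within days, two-sided p = 0.015, adjusted over 13 sets 0.022). The shares overlapped, between 59.2 and 70.7% in chinmoST testes and between 59.7 and 83.8% in wild-type testes. In wild-type ovaries RpL22-like held at most 0.18% of the pair.

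RpL10Aa turned the other way. This autosomal copy of RpL10Ab (FBgn0038281, chromosome 3R, 15037366 to 15038149) was at 119.6, 106 and 75.9 TPM in chinmoST testes at day 9, against 219, 172 and 192 TPM in wild-type testes. At day 11 it was at 61.8, 73.0 and 65.1 TPM in chinmoST testes, against 187, 187 and 188 TPM in wild-type testes. Every chinmoST value lay below every wild-type value on both days, and the log2 fold change was -1.47 ± 0.18 (adjusted p = 4.69e-08). At day 1 the same gene had 237, 232 and 225 TPM in chinmoST testes and 234, 201 and 182 TPM in wild-type testes. RpL10Ab, the partner used in ovaries, was at 575, 509.7 and 492 TPM in chinmoST testes at day 11, against 134, 141 and 122 TPM in wild-type testes (1.56 ± 0.28). RpL10Aa thus held 15.1 ± 4.89% in chinmoST testes and 59.0 ± 5.27% in wild-type testes of the pair's TPM (SD, n = 6 each, exact permutation p = 0.005, the smallest that 400 arrangements allow, adjusted p = 0.0093). The wild-type pair was mostly RpL10Aa and the chinmoST pair mostly RpL10Ab.

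RpS28a and RpS28-like, the autosomal copies of the X-linked small subunit gene RpS28b, fell as well. RpS28-like had 25.1, 31.1 and 27.0 TPM in chinmoST testes at day 11, against 77.7, 75.6 and 76.0 TPM in wild-type testes (-1.54 ± 0.45, adjusted p = 0.00349). RpS28a had 8.46, 14.7 and 11.3 TPM in chinmoST testes, against 30.1, 29.9 and 31.1 TPM in wild-type testes (-1.59 ± 0.40, adjusted p = 0.000868). RpS28b rose to 2575, 2131 and 2058 TPM in chinmoST testes, against 416, 423 and 397 TPM in wild-type testes (1.79 ± 0.30). Together the 2 autosomal copies held 2.48 ± 0.990% in chinmoST testes and 19.0 ± 2.56% in wild-type testes of the set's TPM (SD, n = 6 each, exact permutation p = 0.005, adjusted p = 0.0093).

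The other copies low in ovaries lay between these. RpL37-2 had 486, 432 and 413 TPM in chinmoST testes at day 11, against 99.6, 107 and 97.7 TPM in wild-type testes (1.37 ± 0.38, adjusted p = 0.00183), and at day 9 alone it was not called (0.74, adjusted p = 0.222). RpS19b rose little, to 282, 252 and 244 TPM in chinmoST testes at day 11, against 136, 135 and 130.3 TPM in wild-type testes. Its log2 fold change of 0.60 ± 0.10 (adjusted p = 5.31e-06) lies close to the 1.5-fold limit, and with DESeq2 it was 0.56 and not called. RpS10a had 79.0, 64.4 and 72.8 TPM in chinmoST testes at day 9, against 80, 73.1 and 81.4 TPM in wild-type testes. At day 11 it had 118, 123 and 124 TPM in chinmoST testes, against 76.8, 81.5 and 79.2 TPM in wild-type testes, so the genotypes overlapped at day 9 and not at day 11. Over both days its log2 fold change was 0.00 ± 0.17 (adjusted p = 0.993), and it was 0.59 and called once the trend with gene length was removed.

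The X-linked partner held the larger part of each of these sets. RpS19b held 11.1 ± 0.650% in chinmoST testes and 24.2 ± 4.17% in wild-type testes of its pair with RpS19a. RpS10a held 9.58 ± 2.37% in chinmoST testes and 30.6 ± 6.38% in wild-type testes of its pair with RpS10b. RpL37-2 held 13.9 ± 5.19% in chinmoST testes and 21.7 ± 1.90% in wild-type testes of its pair with RpL37-1, with overlapping libraries. All 3 shares are means ± SD over 6 libraries each and were lower in chinmoST testes by the exact permutation test, at p = 0.005 and an adjusted p of 0.0093.

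**Figure D4:**
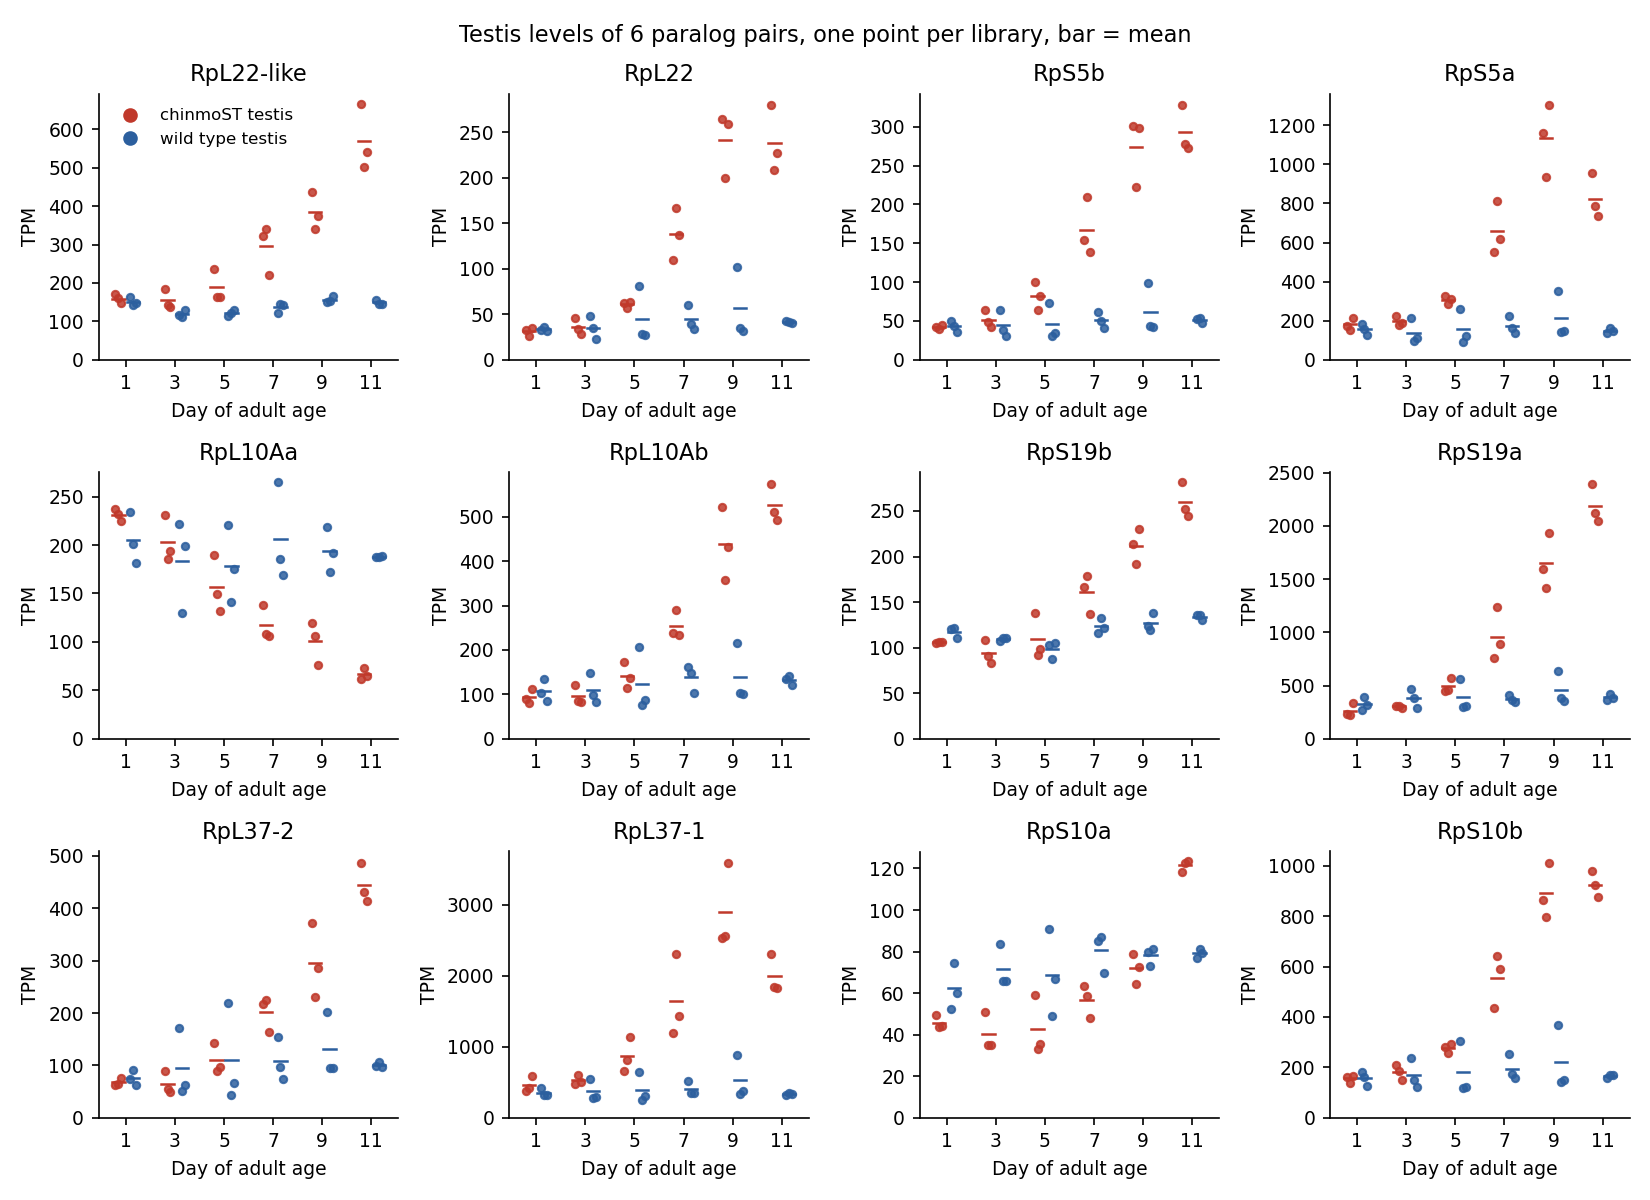
TPM of 6 paralog pairs in testes by day of adult age. Points are libraries, bars group means, and each panel has its own axis from 0. At day 11 RpL10Aa lies between 61.8 and 73.0 TPM and its partner RpL10Ab between 492 and 575 TPM in chinmoST testes, and RpS5b and RpS5a both lie above wild-type testes.

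RpS5b differs from the other germline copies in being abundant in ovaries. It had between 756 and 1691 TPM (median 917) in wild-type ovaries and between 30.7 and 98.9 TPM (median 45.0) in wild-type testes. In chinmoST testes it was at 328, 278 and 273 TPM at day 11, against 52.0, 53.9 and 46.8 TPM in wild-type testes, with no overlap (2.07 ± 0.28, adjusted p = 1.5e-07). Its X-linked partner RpS5a had 955, 785 and 736 TPM in chinmoST testes, against 139.6, 161 and 148 TPM in wild-type testes (2.16 ± 0.30). RpS5b held 22.9 ± 3.8% in chinmoST testes and 23.9 ± 1.93% in wild-type testes of the pair's TPM (SD, n = 6 each, exact permutation p = 0.24), and the libraries overlapped. In wild-type ovaries it held between 34.6 and 71.7% of the pair, with a median of 47.3%. The pooled test joins days that did not look alike. At day 9 RpS5b held 20.6, 19.2 and 18.7% in chinmoST testes, all below the 21.9, 23.1 and 22.5% in wild-type testes. At day 11 it held 25.6, 26.2 and 27.1% in chinmoST testes, against 27.2, 25.1 and 24.1% in wild-type testes, with overlap. Both copies rose in chinmoST testes, and the shares of single days were not tested.

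**Figure D5:**
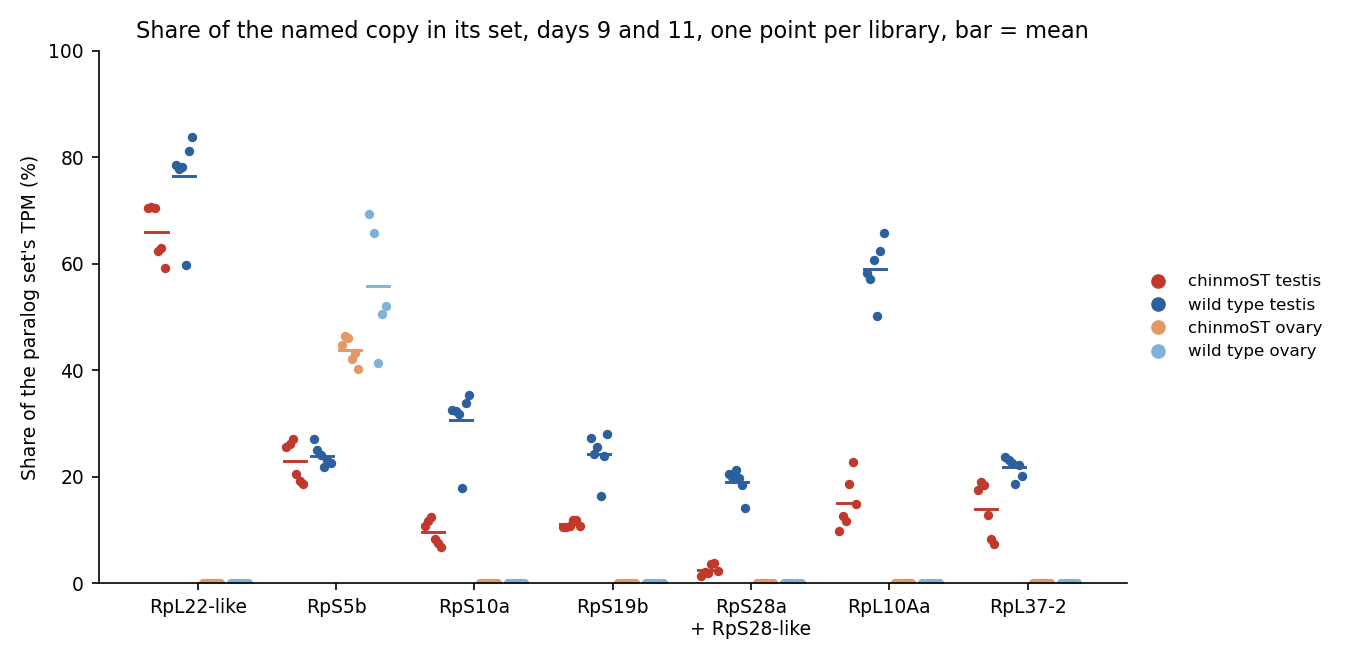
Share of a named copy in the TPM of its paralog set at days 9 and 11, in percent, one point per library with the group mean as a bar. RpL10Aa averages 15.1% in chinmoST testes and 59.0% in wild-type testes. RpS5b is the one copy shown here with a share above 1% in ovaries.

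The remaining sets held copies that are used in both gonads. RpS15Ab, a minor autosomal copy of RpS15Aa, held 4.93 ± 0.850% in chinmoST testes and 11.2 ± 1.69% in wild-type testes of its pair (SD, n = 6 each, exact permutation p = 0.005, adjusted p = 0.0093). RpL34a held 20.4 ± 1.97% in chinmoST testes and 24.2 ± 1.08% in wild-type testes of its pair with RpL34b, with overlapping libraries (SD, n = 6 each, exact permutation p = 0.01, adjusted p = 0.016). RpS14a and RpS14b are adjacent, near-identical genes on the X chromosome, 221 bases apart, so the split of fragments between them is uncertain. Both were called higher, at 1.77 and 1.85, and a difference in the share of RpS14b over both days was not detected (exact permutation p = 0.81, n = 6 each). The days ran opposite ways. At day 9 RpS14b held 30.7, 34.5 and 37.5% in chinmoST testes, against 36.1, 44.7 and 43.4% in wild-type testes, with overlap. At day 11 it held 46.5, 53.2 and 54.8% in chinmoST testes, all above the 43.7, 40.2 and 44.9% in wild-type testes. RpL7-like, RpL24-like and RpLP0-like resemble yeast factors that act in the assembly of the large subunit and not in the finished ribosome. All were called higher, at 1.28, 1.28 and 2.01, beside 2.12, 1.41 and 2.2 for RpL7, RpL24 and RpLP0. RpL7-like held 21.1 ± 1.92% in chinmoST testes and 32.2 ± 1.66% in wild-type testes of its pair with RpL7, without overlap (SD, n = 6 each, exact permutation p = 0.005, adjusted p = 0.0093). RpL24-like held 27.3 ± 2.2% in chinmoST testes and 29.4 ± 1.70% in wild-type testes of its pair, with overlapping libraries (SD, n = 6 each, exact permutation, adjusted p = 0.0325), and its adjusted p was 0.124 without wild-type testis replicate 1 of day 9. A difference in the share of RpLP0-like over both days was not detected (exact permutation p = 0.66, n = 6 each), although the genotypes overlapped at day 9 and every chinmoST share lay below every wild-type share at day 11.

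A small group of genes moved further between days 9 and 11. In chinmoST testes, 9 of the 93 genes were higher at day 11 than at day 9 (7% of all genes called, 2.91% higher and 4.08% lower), and they were RpL34b, RpL36, RpL34a, RpL13A, RpS14b, RpL6, RpL4, RpS10a and RpL22-like. RpL36 had 3315, 4065 and 3948 TPM in chinmoST testes at day 11 and 1152, 1083 and 1581 TPM at day 9 (1.65 ± 0.38, adjusted p = 0.00644). In chinmoST ovaries the same gene had 7484, 12195 and 9491 TPM at day 11 and 3509, 2952 and 4641 TPM at day 9, without overlap, and was not called (1.27 ± 0.69, adjusted p = 0.867). RpL34b in chinmoST ovaries had 3839.7, 4366 and 4093 TPM at day 11 and 1303, 1310.4 and 2112 TPM at day 9, and was not called either (1.24 ± 0.67, adjusted p = 0.867). In this ovary comparison edgeR called 0 of 90 genes of the family and 0% of 11478 genes. An unadjusted p under 0.05 was found for 15 of the 90, all lower at day 11, and for 690 of the 11478 genes. The median over the family was -0.24. No result of another tool is given for this comparison. In wild-type ovaries RpL36 spread widely within a day, with 3847, 18466 and 6739 TPM in the 3 libraries of day 3. RpL13A, RpL6 and RpL4 are named here after their values were seen.

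In ovaries few of these genes differed between the genotypes. Of 90 genes that passed the filter, 1 was called higher and 12 lower in chinmoST ovaries over all 6 days, where 28.2% of all genes were called, 14.3% higher and 13.8% lower. RpL28 was the higher one, at 0.70 ± 0.18 (adjusted p = 0.00358). The lower ones included RpL36 (-1.22), RpL38 (-1.06), RpL41 (-1.03) and RpL34b (-0.89). RpL28 was between 4195 and 11446 TPM (median 8270.3) in chinmoST ovaries and between 1484 and 8088 TPM (median 5249) in wild-type ovaries, so the ranges overlapped. These counts do not hold up across settings. With limma on log2(TPM + 1) 9 genes were called, all higher, 29 were called without replicate 1, 3 without replicate 2, 2 without replicate 3, and 2 without the 7 ovary libraries low in long genes, which include both wild-type ovary libraries of day 11. The share of all genes called is not given for these settings, so these counts have no background beside them. The genotype difference in testes at days 9 and 11 exceeded that in ovaries for 78 of the 93 genes, all of those called (39.6% of all genes called, 19% larger and 20.6% smaller in testes). Without replicate 2 it did so for 46, with no share of all genes given. Both wild-type ovary libraries of day 11 had long genes at a median log2 of -0.966 and -1.479 from the ovary mean. The 3 chinmoST ovary libraries of that day lay between 0.293 and 0.343. This comparison was not run without both of those wild-type libraries.

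Cytosolic translation genes outside the family were also tested. Of 28 ribosome biogenesis genes, 24 were called higher in chinmoST testes at days 9 and 11 and the other 4 were not called, with a median log2 fold change of 1.79. All 8 translation elongation factors were called higher, with a median of 1.67. Of 72 mitochondrial ribosomal protein genes, whose products serve the separate ribosome of mitochondria, 27 were higher, 1 was lower and 44 were not called, with a median of 0.44, a share of higher calls near that of all genes. Of 10 growth regulators, 6 were higher and 1 lower, with a median of 1.22. The background for these counts is the 34.1% of all genes called higher and 31.4% called lower in this comparison.

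Several cell type marker lists differed between the same libraries of days 9 and 11, and others did not move one way. The 5 spermatid markers summed to between 4441 and 7176 TPM in chinmoST testes, against between 12634 and 15856 TPM in wild-type testes, and all 5 were called lower. The 6 spermatocyte markers summed to between 92.2 and 116 TPM in chinmoST testes, against between 134 and 155 TPM in wild-type testes, and 2 of 6 were called, both lower. These 2 lists did not overlap between the genotypes.

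The 4 early germline markers summed to between 162 and 237 TPM in chinmoST testes, against between 31.8 and 51.7 TPM in wild-type testes, and 3 of 4 were called higher. The 3 cyst cell markers summed to between 46.5 and 90.4 TPM in chinmoST testes, against between 17.9 and 29.8 TPM in wild-type testes, and 2 of 3 were called higher. The 5 muscle markers summed to between 283 and 615 TPM in chinmoST testes, against between 134 and 194 TPM in wild-type testes, and all 5 were called higher. The sums of these 3 lists did not overlap either.

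The 5 ovarian germline markers summed to less, between 230.3 and 293 TPM in chinmoST testes, against between 311 and 514 TPM in wild-type testes, while 3 of 5 were called higher and 1 lower. The 9 follicle cell secretion markers summed to between 9.65 and 707 TPM (median 24.1) in chinmoST testes, against between 5.88 and 14.4 TPM (median 7.95) in wild-type testes, and these ranges overlapped. Of the 8 follicle cell genes tested, 1 was called higher at day 9 (median log2 fold change 0.66) and 8 at day 11 (4.73). The earlier comparison of day 7 had already called 3 of these 8 higher, with a median of 2.62. Of the 3 yolk genes, 1 was called higher at day 9 (median 1.38) and 3 at day 11 (6). For them too day 7 lay above day 9, with 2 called higher and a median of 3.59. Neither list rose steadily with age. Of the 3 fat body markers 1 was called higher and 1 lower, and the 8 accessory gland markers overlapped widely, between 50.9 and 1458 TPM in chinmoST testes and between 139 and 1219 TPM in wild-type testes, with no gene called by edgeR over both days and 1 called higher at day 11. The part of these markers in the ribosomal protein results was not tested.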

How the data were processed

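Whole testes and ovaries were profiled by poly(A)-selected bulk RNA-seq. Per the labels, the authors used FastQC 0.11.9, Trim Galore 0.6.4, RSEM, Bowtie2 and the dm6 build, and deposited expected counts and TPM per gene. The authors computed TPM within each library from expected counts and effective lengths. Replicates are pools, and p-values measure the spread between them. Here expected counts were rounded and tested with edgeR 4.0.16 (filterByExpr, TMM, quasi-likelihood) over all genes of the testis, ovary, wild-type or whole set of libraries, with Benjamini-Hochberg adjustment. SE is the log2 fold change over the square root of its F statistic. Paralog shares of set TPM were compared by exact permutation within days. Alternatives used DESeq2 1.42.0, limma 3.58.1 on log2(TPM + 1), library size, no filter, no length trend, a replicate term, and fewer libraries. In a simulation of the comparison of days 9 and 11 on 14691 genes, 70% of 2-fold changes were recovered. It changed 200 genes, gave every gene the same spread and held no length trend. The real comparison differs in these points, so the simulation does not give its power. Named genes were all members of paralog sets, sta, and of the other genes the 4 highest and 4 lowest fold changes at days 9 and 11, the 3 highest and 3 lowest in wild-type ovaries against testes, and the 3 with the highest TPM in wild-type testes. A gene that this rule names is not reported here. Members and lists were chosen with earlier results of these data known. The deposited FPKM values were not used. Of the 93 genes, 25 overlap another protein-coding gene, and no strand setting is given in the sources used here.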

Additional observations from a re-analysis of the deposited data

Results flagged for a closer look

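Wild-type testis replicate 1 of day 9 stood apart among the 6 wild-type testis samples of days 9 and 11 for 5 values, of 28 groups of 6 libraries examined, where chance flags about 1.4. It held 4.57% of its TPM in the 93 genes, a share of 59.7% for RpL22-like, 17.8% for RpS10a, 7.87% for RpS15Ab and 16.4% for RpS19b in their sets. It is one of the libraries low in long genes, with a correlation of -0.811 between gene length and deviation from the mean over genes. Without it the shares of these 4 copies stayed lower in chinmoST testes and kept an adjusted exact permutation p under the threshold.

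The genotype effect differed between ages for 89 of the 93 genes (56.6% of all genes called). It differed between testes and ovaries for 78 (39.6% of all genes called), where both wild-type ovary libraries of day 11 were low in long genes. Each was tested by an interaction term in edgeR.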

How the results depend on the processing

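Members called at days 9 and 11 in testes numbered between 85 and 93 under every alternative. Shares of all genes called under the alternatives are not given here. Over days 3 and 5 (7 called) the count was 25 with the length trend removed, 11 with limma, 3 with only the groups compared, 37 without wild-type testis replicate 1 of days 3, 5, 7 and 9, and between 4 and 35 with a replicate number left out. At day 1 (1 called) it was 0 with DESeq2, with no filter and with only the groups compared, 2 with the length trend removed, 3 with limma, 3 without those wild-type libraries and between 0 and 12 with a replicate left out. The genotype difference of days 9 and 11 minus that of day 1 (89) was called for between 57 and 91 genes with a replicate left out, and testes minus ovaries (78) for between 46 and 83. In ovaries (13) the count was 24 by adjusted p alone, 2 without libraries low in long genes, 5 without day 11, which was chosen after seeing the data, and between 2 and 29 with a replicate left out. Of the paralog shares, 10 of 13 passed, and 0 with a replicate left out, where 36 arrangements cannot give a p under 0.0556.

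RpS10a at days 9 and 11 (0.00) was -0.04 with DESeq2, -0.10 with no filter, -0.03 with only the groups compared, between -0.02 and -0.01 with a replicate left out and -0.45 at day 9 alone, a setting chosen after seeing the data. RpL41 over days 3 and 5 was 0.07 without the wild-type libraries low in long genes. The share of RpS14b (0.70 points) was -0.51 without wild-type testis replicate 1 of day 9 and -6.08 over all 6 days, that of RpL24-like (-2.12) was 0.23 over all 6 days, and that of RpLP0-like (-0.48) was between -1.44 and 0.99 with a replicate left out, 0.34 without that library and 0.32 over all 6 days. The causes were not tested.

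The labels do not say that a replicate number marks a shared animal, litter or day, so the main fits left it out. With the number as a replicate block, 92 genes were called at days 9 and 11, 15 in ovaries and 0 at day 1.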
